A study of Homo sapiens with 6 samples.

Results

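Haematopoietic cytokine receptors carry growth and differentiation signals into blood cells, and their transcripts were followed here in Mon-Mac-6 cells given a degrader of METTL3. The 10 genes were CSF3R, CSF1R, CSF2RA, CSF2RB, IL3RA, IL6R, IL13RA1, IL7R, FLT3 and KIT. They were taken by gene symbol from a table of 31853 genes, and 9 of the 10 had a row there. KIT is not analysed here. The receptors were selected on their counts in the WD6305 libraries against the DMSO libraries, with the differences already known. The differences below are therefore a description, and no p-value is given for them.

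Mon-Mac-6 is a long-cultured human cell line that came from an acute leukaemia of the monocytic type. The cells were exposed for 48 h to 500 nM WD6305, a PROTAC (a molecule that brings its target protein to an E3 ubiquitin ligase) directed at METTL3, or to DMSO, the vehicle. Poly(A) RNA was sequenced from 3 libraries with WD6305 and 3 with DMSO, all from this single line, with no untreated cells among the samples. The labels do not say that the libraries of a group were separate cultures, so a p-value here covers only how these libraries vary, and that variation could be technical.

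Most of these receptors belong to the type I cytokine receptor family, whose chains have no kinase of their own and signal through bound Janus kinases (JAKs) and STAT transcription factors. Several work as pairs: CSF2RA and IL3RA bind their ligand and share the signalling chain CSF2RB, IL6R pairs with IL6ST, IL13RA1 with IL4R, and IL7R with IL2RG or CRLF2. CSF1R, FLT3 and KIT are instead class III receptor tyrosine kinases, which carry their own kinase domain. In myeloid cells CSF3R and CSF1R are textbook receptors of the granulocytic and monocytic branches, FLT3 marks progenitors and many acute leukaemias, and IL7R is best known from lymphoid precursors.

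Across the libraries the deposited estimated counts summed to between 64525948 and 71155346, and 18138 genes had enough counts to be tested. METTL3, the gene whose protein is the target, had 78.2, 76.0 and 79.7 CPM (counts scaled to a common, TMM-adjusted library size) in the WD6305 libraries 1, 2 and 3, against 70.5, 64.9 and 66.4 CPM in the DMSO libraries. This is a log2 fold change of 0.21 (SE 0.05). The Benjamini-Hochberg adjusted p by edgeR was 0.0218, and it was between 0.0501 and 0.0931 in the 6 of 15 alternatives that lost the call, which include leaving out WD6305 1, 2 or 3 or DMSO 2. RNA gives no measure of METTL3 protein. Of the monocyte markers, 7 of 8 had a mean FPKM (fragments scaled to transcript length and to library size) of at least 1, and the sum over the list, which includes CSF1R, was 9501 to 10896 CPM with WD6305 and 5481 to 5979 CPM with DMSO. LYZ, the lysozyme gene, gave 9152 to 10527 CPM of this sum with WD6305 and 5256 to 5755 CPM with DMSO, so the sum says little about the other markers. CD14 fell to 13.6 ± 1.01 CPM with WD6305, against 17.6 ± 0.290 CPM with DMSO (edgeR adjusted p = 0.0123, 0.0512 without WD6305 2 and 0.0578 without WD6305 3). LYZ, CD68, ITGAM and CD33 rose by 0.87, 1.17, 0.84 and 0.30 on the log2 scale (edgeR adjusted p = 0.000136, 2.4e-05, 0.000696 and 0.00786). FCGR1A had a log2 fold change of 0.06 and did not pass. CD4 was near 0. The part of this marker difference in the receptor results was not tested. Only 2 of 6 T cell markers, CD8A and CD8B, had a row, and neither reached a mean FPKM of 1. The T cell sum was 0.638 to 2.02 CPM with WD6305 and 1.98 to 2.36 CPM with DMSO. B cell markers (3 of 5 with a row) summed to at most 2.96 CPM in any library. Erythroid markers (2 of 5 with a row) summed to at most 0.732 CPM and megakaryocyte markers (2 of 4 with a row) to at most 0.553 CPM. Mast cell or basophil markers, carried by TPSAB1 and TPSB2, summed to 67.7 to 69.2 CPM with WD6305 and 53.1 to 61.1 CPM with DMSO. Fibroblast markers summed to 42.7 CPM in WD6305 1 and to at most 2.60 CPM in the other libraries. Keratinocyte markers set 2 libraries apart: their sum was 6.21 CPM in WD6305 1 against 150 to 154 CPM in the other WD6305 libraries, and 6.75 CPM in DMSO 3 against 165 to 193 CPM in the other DMSO libraries. Without WD6305 1 and DMSO 3 the log2 fold change was 1.11 for CSF3R, 1.45 for CSF1R, 0.38 for IL6R, 0.57 for IL13RA1 and -2.24 for IL7R.

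CSF3R, CSF1R and IL7R were the receptors that differed at least 2-fold, and the RefSeq sequence (GRCh38.p14) before their annotated starts is shown, because several transcription factors that act at myeloid promoters are among the pathway genes reported below. Of the 9 receptors 8 had a window, with 10 windows of 250 bases in all. Each stretch is written 5' to 3' on the gene's strand and leaves out bases that GENCODE 29 annotates as UTR. Capitals mark matches to 4 motifs searched on both strands. The PU.1 core is written GAGGAA. The RUNX motif is written TGTGGT. The C/EBP motif is written TTNNGCAA. The GATA motif is written AGATAA.
CSF3R, chr1:36483315-36483564, minus strand: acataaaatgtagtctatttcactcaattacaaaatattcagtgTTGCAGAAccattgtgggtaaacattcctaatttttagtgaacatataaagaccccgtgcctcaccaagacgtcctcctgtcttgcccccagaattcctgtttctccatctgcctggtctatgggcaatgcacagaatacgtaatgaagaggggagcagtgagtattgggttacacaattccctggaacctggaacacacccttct
CSF1R, distal start, chr5:150113373-150113615, minus strand: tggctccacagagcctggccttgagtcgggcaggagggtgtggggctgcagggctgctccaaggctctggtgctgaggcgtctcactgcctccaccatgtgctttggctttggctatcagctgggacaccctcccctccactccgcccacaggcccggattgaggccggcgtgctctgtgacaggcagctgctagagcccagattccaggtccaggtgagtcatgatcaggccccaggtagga
CSF1R, internal start, chr5:150086608-150086804, minus strand: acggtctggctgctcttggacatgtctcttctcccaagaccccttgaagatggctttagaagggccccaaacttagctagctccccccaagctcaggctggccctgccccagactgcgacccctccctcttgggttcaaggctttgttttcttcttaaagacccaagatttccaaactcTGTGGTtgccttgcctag
IL7R, chr5:35856688-35856848, plus strand: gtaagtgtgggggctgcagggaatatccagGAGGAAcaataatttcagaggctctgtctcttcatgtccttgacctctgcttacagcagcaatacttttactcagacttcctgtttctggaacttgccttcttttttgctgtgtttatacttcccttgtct

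The CSF3R stretch holds 1 C/EBP match, whose first base lies at -206 from the annotated start. A second CSF3R window, at chr1:36482914-36483163, held a PU.1 core at -111 and is not printed because it lies in an annotated UTR. The distal CSF1R window held no match, and the internal one, 26818 bases downstream of the gene's 5' end in the table, held PU.1 cores at -20 and -14 and a RUNX match at -71. Both PU.1 cores of that window lie in bases left out of the print. The annotated start used for IL7R lies 4196 bases downstream of the deposited 5' end of the gene. Its window held a PU.1 core at -173, a RUNX match at -43 and a GATA match at -36. The last 2 of these do not lie wholly within the printed stretch. Among all 10 windows the PU.1 core was found in 6, the RUNX motif in 2, the C/EBP motif in 2 and the GATA motif in 1. In 34788 promoter windows of the same length the PU.1 core was in 23.6%, the RUNX motif in 11.0%, the C/EBP motif in 9.05% and the GATA motif in 9.21%. No match overlapped another in the 10 windows. A match is a run of letters and says nothing about binding in these cells.

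Among the colony-stimulating factor receptors, CSF3R and CSF1R were higher with WD6305, CSF2RA was slightly higher, and CSF2RB was at a like level. CSF3R, the receptor for G-CSF, is a minus-strand gene of chromosome 1, with start 36466043 and end 36483278 (GRCh38, as are all gene coordinates here). It had 275, 282 and 280 CPM in the WD6305 libraries, against 125, 136 and 116 CPM in the DMSO libraries. The 2 groups stand well apart, and the DMSO libraries are spread more widely than the WD6305 libraries. The means were 279 ± 3.74 CPM and 126 ± 10.2 CPM (SD, n = 3 each), a log2 fold change of 1.15 (SE 0.06), or 2.22-fold. In a bulk sample, more RNA per cell and more cells that carry the transcript cannot be told apart.

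CSF1R, the receptor tyrosine kinase for M-CSF and IL-34, is a minus-strand gene of chromosome 5, with start 150053291 and end 150113372. It had 9.29, 12.5 and 9.67 CPM with WD6305, against 4.29, 3.84 and 3.68 CPM with DMSO. Every WD6305 library was above every DMSO library, and WD6305 2 was the highest. The means were 10.5 ± 1.76 CPM and 3.94 ± 0.318 CPM (SD, n = 3 each), and the log2 fold change was 1.41 (SE 0.15), or 2.66-fold. This was the larger ratio of the pair, at a far lower level. Per length, CSF3R exceeded CSF1R by 13.2 ± 1.87-fold with WD6305 and by 15.7 ± 1.59-fold with DMSO (FPKM ratio, SD, n = 3 each).

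CSF2RA, the ligand-binding chain for GM-CSF, lies in the pseudoautosomal region and is given on chromosome X from 1268800 to 1310381, plus strand. It had 13.5, 13.6 and 14.6 CPM with WD6305, against 12.3, 11.6 and 10.4 CPM with DMSO. The groups do not overlap, but the gap between the lowest WD6305 library and the highest DMSO library was smaller than the range of the DMSO libraries. The means were 13.9 ± 0.600 CPM and 11.4 ± 0.979 CPM (SD, n = 3 each), and the log2 fold change was 0.28 (SE 0.09). IL3RA, the interleukin-3 binding chain, is its neighbour on the same strand, from 1336785 to 1382689. It had 5.87, 5.23 and 5.49 CPM with WD6305, against 5.56, 4.51 and 4.65 CPM with DMSO. The groups overlap, since DMSO 1 was above 2 of the WD6305 libraries, and the log2 fold change was 0.17 (SE 0.14).

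CSF2RB, the signalling chain that GM-CSF, interleukin-3 and interleukin-5 receptors share, lies on the plus strand of chromosome 22 from 36913628 to 36940439. It had 18.6, 18.9 and 20.8 CPM with WD6305, against 18.9, 16.7 and 20.5 CPM with DMSO. These values intermingle, and the log2 fold change of 0.06 (SE 0.10) changed sign, to -0.02, when DMSO 2 was left out. Per length, CSF2RB exceeded CSF2RA by 1.15 ± 0.022-fold with WD6305 and by 1.36 ± 0.235-fold with DMSO. CSF2RB exceeded IL3RA by 1.21 ± 0.107-fold with WD6305 and by 1.31 ± 0.174-fold with DMSO (FPKM ratios, SD, n = 3 each). The 3 chains of these receptors were present at similar RNA levels per length in both groups.

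**Figure D1:**
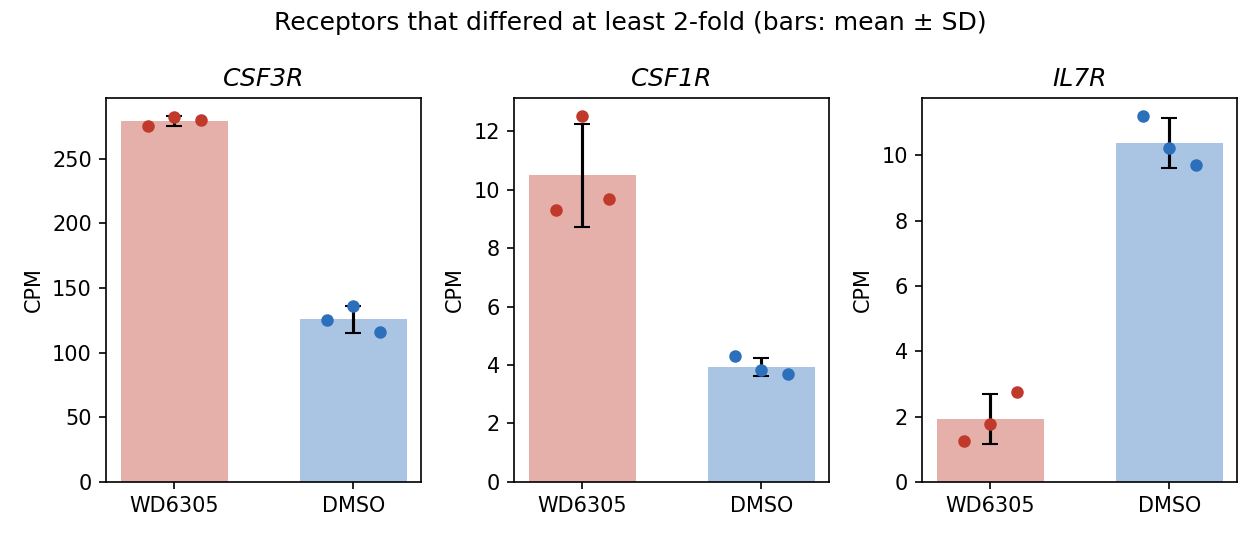
CPM of CSF3R, CSF1R and IL7R (1 panel each, y axis from 0) in each of the 3 WD6305 and 3 DMSO libraries, with bars at the mean and error bars of 1 SD. The WD6305 points lie above the DMSO points for CSF3R (275 to 282 against 116 to 136 CPM) and CSF1R, and below them for IL7R (1.26 to 2.75 against 9.70 to 11.2 CPM).

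The 3 interleukin receptors with clear differences did not share a direction: IL6R and IL13RA1 were higher with WD6305, and IL7R was lower. IL6R, the interleukin-6 binding chain, lies on the plus strand of chromosome 1 from 154405193 to 154466877. It had 344, 344 and 357 CPM with WD6305, against 260, 277 and 264 CPM with DMSO. The groups do not overlap and each is tight. The means were 348 ± 7.37 CPM and 267 ± 9.03 CPM (SD, n = 3 each), a log2 fold change of 0.38 (SE 0.04), or 1.30-fold. The antisense gene IL6R-AS1 (chr1:154402328-154406564, minus strand) overlaps an IL6R exon, and no source used here says if strand entered the counting, so reads of the pair may be shared. It had a mean of 0.660 CPM with WD6305 and 0.346 CPM with DMSO, far below IL6R.

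IL13RA1, a chain that binds interleukin-13 and forms a receptor with IL4R, lies on the plus strand of chromosome X from 118727133 to 118794535. It had 58.3, 59.2 and 56.8 CPM with WD6305, against 39.1, 39.0 and 38.1 CPM with DMSO. Both groups were tight and far apart. The means were 58.1 ± 1.22 CPM and 38.7 ± 0.522 CPM (SD, n = 3 each), a log2 fold change of 0.58 (SE 0.06), or 1.50-fold.

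IL7R, the specific chain of the interleukin-7 and TSLP receptors, lies on the plus strand of chromosome 5 from 35852695 to 35879603. It was the one receptor of the 9 with a lower level with WD6305, and had 1.26, 1.77 and 2.75 CPM there, against 11.2, 10.2 and 9.70 CPM with DMSO. The groups stand far apart, and the WD6305 libraries vary among themselves, with a coefficient of variation of 39.3%. The means were 1.93 ± 0.759 CPM and 10.4 ± 0.755 CPM (SD, n = 3 each). The log2 fold change was -2.42 (SE 0.25), and DMSO exceeded WD6305 by 5.37-fold. The WD6305 values rest on 81, 122 and 184 deposited counts, against 795, 685 and 667 with DMSO. T cell markers, the nearest lymphoid list, had a row for only 2 of 6 genes. These markers summed to at most 2.36 CPM in any library, below the level of IL7R with DMSO, and their part in the result was not tested.

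FLT3, the receptor tyrosine kinase for FLT3 ligand, is a minus-strand gene of chromosome 13, with start 28003274 and end 28100592, and was by far the most abundant receptor. It had 2344, 2459 and 2342 CPM with WD6305, against 2203, 2182 and 2345 CPM with DMSO. The groups overlap, because DMSO 3 was just above the lower 2 WD6305 libraries. The means were 2382 ± 66.9 CPM and 2243 ± 88.9 CPM (SD, n = 3 each), and the log2 fold change was 0.09 (SE 0.05). FLT3 made up 75.8% to 76.9% of the counts of the 9 receptors with WD6305 and 81.4% to 83.4% with DMSO. Among all 18138 tested genes it ranked 51 by mean FPKM in both groups. The other 8 receptors together had 726, 737 and 746 CPM with WD6305, against 476, 499 and 467 CPM with DMSO.

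**Figure D2:**
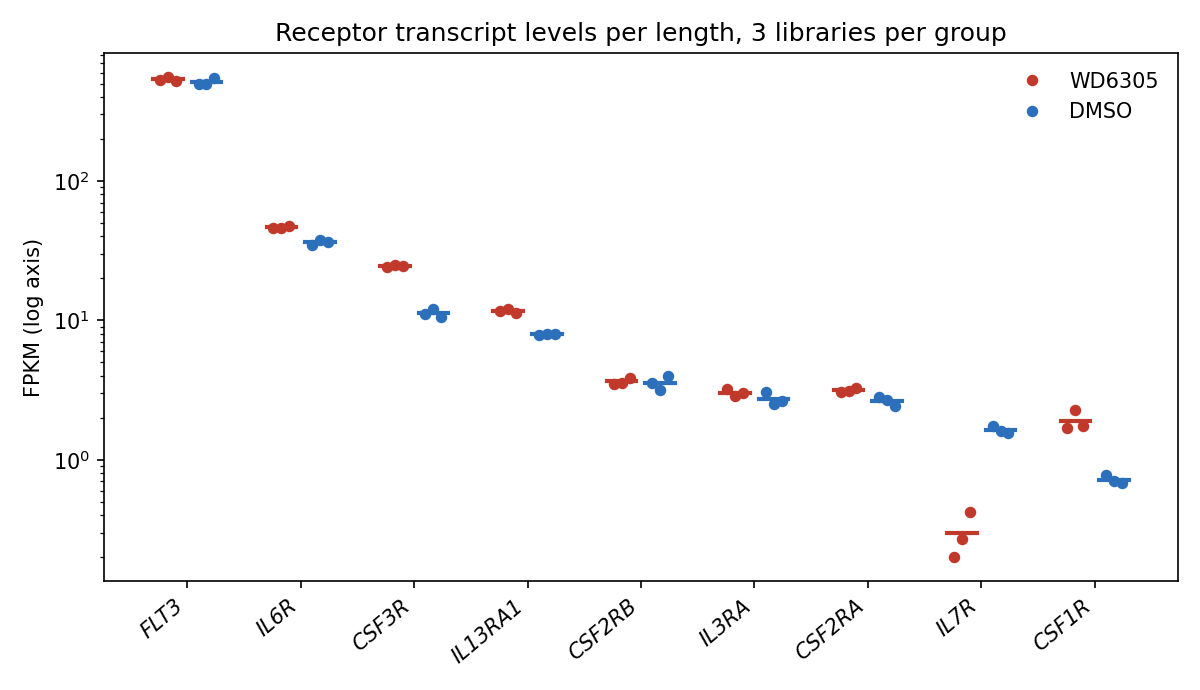
FPKM of each receptor on a log axis, with 1 point per library (WD6305 left, DMSO right, 3 each) and lines at the group means. FLT3 lies far above the rest in both groups, and CSF1R and IL7R, the lowest receptors, are in opposite order in the 2 groups.

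Per length, the order of the receptors was the same in both groups at the top and changed at the bottom. With WD6305 mean FPKM was 536 for FLT3, 46.6 for IL6R, 24.7 for CSF3R, 11.7 for IL13RA1, 3.65 for CSF2RB, 3.16 for CSF2RA, 3.02 for IL3RA, 1.90 for CSF1R and 0.297 for IL7R. With DMSO it was 514 for FLT3, 36.3 for IL6R, 11.3 for CSF3R, 7.93 for IL13RA1, 3.56 for CSF2RB, 2.73 for IL3RA, 2.65 for CSF2RA, 1.63 for IL7R and 0.720 for CSF1R. CSF2RA and IL3RA overlapped between libraries in both groups, so their order is not resolved, and no other neighbours in the order overlapped. CSF1R was above IL7R in each WD6305 library (1.68, 2.27 and 1.74 against 0.20, 0.27 and 0.42 FPKM). IL7R was above CSF1R in each DMSO library (1.74, 1.60 and 1.55 against 0.78, 0.70 and 0.68 FPKM). Among the receptor tyrosine kinases, FLT3 exceeded CSF1R by 287 ± 36.5-fold with WD6305 and by 717 ± 82.0-fold with DMSO (FPKM ratio, SD, n = 3 each).

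By the fit over all genes, 4249 of 18138 genes were called (23.4%, edgeR quasi-likelihood test, Benjamini-Hochberg threshold 0.05), and 2756 were called without WD6305 3. In that same fit 4 of the 9 receptors met the call rule with a higher level (12.2% of all genes), 1 with a lower level (11.2% of all genes) and 4 did not meet it. The groups did not overlap for 6 receptors, against 40.8% of all genes. A call with at least a 2-fold difference was made for 3, against 2.30% of all genes. These counts are a description and not a test, since the same contrast chose the receptors, and nothing is read from them. Nearest to the 2-fold line inside it was CSF3R, at 2.22-fold, and outside it IL13RA1, at 1.50-fold. The median log2 fold change was 0.28 over the 9 receptors and 0.00 over all tested genes.

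**Figure D3:**
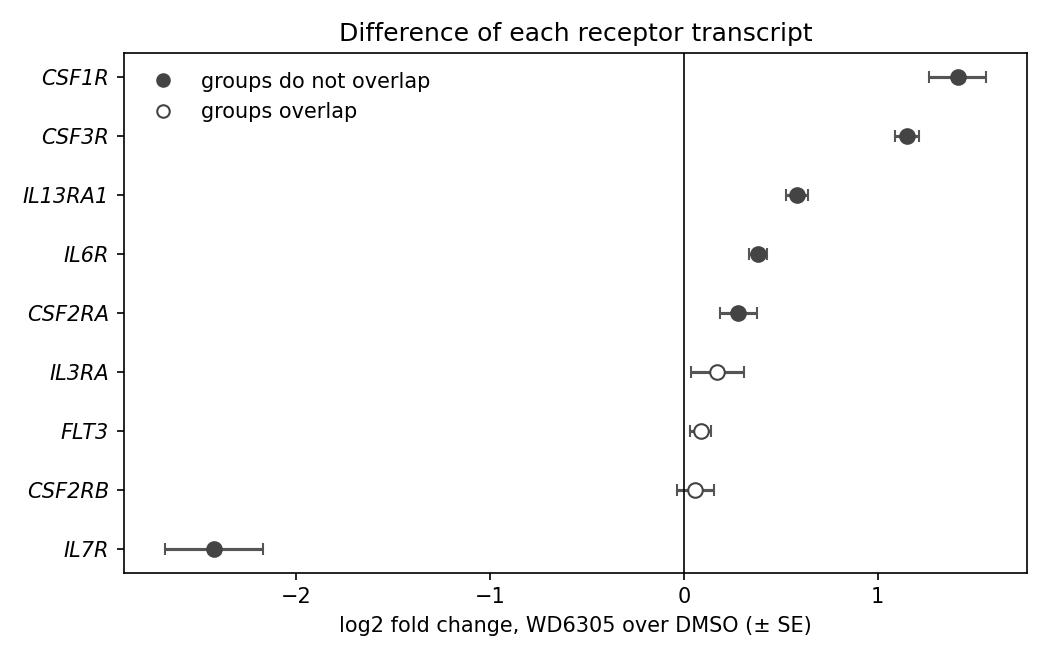
Log2 fold change of each receptor, WD6305 over DMSO, with error bars of 1 SE. Filled points mark receptors whose 3 WD6305 and 3 DMSO libraries do not overlap in CPM, and open points those that do: IL3RA, FLT3 and CSF2RB, with values of 0.17, 0.09 and 0.06.

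The other genes of these pathways were taken from 10 lists arranged by role, with 153 genes, of which 144 had a row and 130 were tested. In all 38 rose and 19 fell, or 43.8% of those tested, against 23.4% of all genes. Their median log2 fold change was 0.05. The lists were chosen with earlier results of these data known, so the shares called in them are a description. Adjusted p-values below are from the edgeR quasi-likelihood test with Benjamini-Hochberg adjustment over all 18138 genes. Values are mean CPM ± SD with n = 3 libraries per group.

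Ligands of these receptors were scarce. Of 13 ligand genes 7 had a row and 4 were tested, and none passed the edgeR test, against 23.4% of all tested genes. At an unadjusted p under 0.05, 2 were lower, against 3125 of all 18138 tested genes. DESeq2 called 1 lower, against 2483 of all 18138. FLT3LG, the ligand of FLT3, had 3.31 ± 0.692 CPM with WD6305 and 4.36 ± 0.397 CPM with DMSO (edgeR adjusted p = 0.164). CSF1, which binds CSF1R, had 1.27 ± 0.302 CPM with WD6305 and 1.70 ± 0.217 CPM with DMSO. TSLP, which signals through IL7R with CRLF2, had 2.90 ± 0.141 CPM with WD6305 and 4.34 ± 0.973 CPM with DMSO. KITLG, the ligand of KIT, had 0.241 ± 0.211 CPM with WD6305 and 1.36 ± 0.919 CPM with DMSO. IL6 was too low to test, with 7, 0 and 0 counts in the WD6305 libraries and 9, 10 and 10 counts in the DMSO libraries.

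Of the partner chains, 1 of 3 tested rose and none fell by the edgeR test, or 33.3% called, against 23.4% of all tested genes. At an unadjusted p under 0.05 and by DESeq2 the count was again 1, against 3347 and 2520 higher of all 18138 tested genes. IL6ST, the signalling partner of IL6R, rose to 15.2 ± 0.562 CPM with WD6305, against 10.3 ± 1.59 CPM with DMSO (log2 fold change 0.56, SE 0.12, edgeR adjusted p = 0.00897). Both chains of the interleukin-6 receptor were therefore higher, and the FPKM ratio of IL6R to IL6ST was 39.5 ± 1.15 with WD6305 and 45.2 ± 6.56 with DMSO. IL4R, the partner of IL13RA1, had 77.6 ± 7.82 CPM with WD6305 and 74.4 ± 3.87 CPM with DMSO (edgeR adjusted p = 0.648). The FPKM ratio of IL13RA1 to IL4R was 0.954 ± 0.092 with WD6305 and 0.661 ± 0.029 with DMSO. The partners of IL7R were nearly absent: IL2RG, the common gamma chain, had 0.373 ± 0.238 CPM with WD6305 and 0.321 ± 0.145 CPM with DMSO, and CRLF2 had 0, 0 and 0 counts with WD6305 and 7, 0 and 0 counts with DMSO. IL13RA2, a decoy for interleukin-13, had 0, 4 and 0 counts with WD6305 and 0, 0 and 10 counts with DMSO.

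Of the other cytokine receptors, 23 were tested, 3 rose and 4 fell, with a median log2 fold change of -0.06. That is 30.4% called, near the 23.4% of all tested genes, which also moved both ways. IL21R, the interleukin-21 receptor and a relative of IL7R that also pairs with IL2RG, fell to 3.38 ± 0.938 CPM with WD6305, against 7.80 ± 0.538 CPM with DMSO (log2 fold change -1.20, SE 0.19, edgeR adjusted p = 0.00257). IL12RB1, a chain of the interleukin-12 and interleukin-23 receptors, fell to 12.3 ± 1.40 CPM with WD6305, against 18.8 ± 0.841 CPM with DMSO (edgeR adjusted p = 0.00283). IFNAR2, of the type I interferon receptor, also fell, by 0.45 on the log2 scale (SE 0.05, edgeR adjusted p = 0.00065). PRLR, the prolactin receptor, rose to 47.5 ± 0.594 CPM with WD6305, against 26.9 ± 5.36 CPM with DMSO (edgeR adjusted p = 0.00214). IFNGR1, of the interferon-gamma receptor, rose by 0.36 on the log2 scale (SE 0.05, edgeR adjusted p = 0.00141). Of the receptor kinases related to CSF1R and FLT3, 3 were tested and none passed by edgeR or DESeq2. At an unadjusted p under 0.05, 1 was higher and 1 lower, against 3347 and 3125 of all 18138 tested genes.

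Of the JAK and STAT genes, all 11 were tested, 4 rose and 2 fell, or 54.5% called, against 23.4% of all tested genes. The Janus kinases that bind these receptors did not move together. JAK2, used by the CSF2RB chain, rose to 30.0 ± 3.04 CPM with WD6305, against 18.2 ± 3.00 CPM with DMSO (edgeR adjusted p = 0.00371). JAK1 rose to 112 ± 2.17 CPM with WD6305, against 88.0 ± 5.01 CPM with DMSO (edgeR adjusted p = 0.00214). JAK3, which binds IL2RG beside IL7R, fell to 4.87 ± 0.824 CPM with WD6305, against 7.12 ± 0.459 CPM with DMSO (edgeR adjusted p = 0.0282), a call lost in 10 of 15 alternatives, at adjusted p between 0.0522 and 0.142, including without WD6305 1 or 3 or any DMSO library. TYK2 rose by 0.19 on the log2 scale (edgeR adjusted p = 0.0168), and its adjusted p was 0.0512 without WD6305 1 and 0.0754 without WD6305 2. STAT2, a factor of interferon signalling, rose to 75.5 ± 4.78 CPM with WD6305, against 46.5 ± 2.98 CPM with DMSO (edgeR adjusted p = 0.000298). STAT3, the main STAT below IL6R and CSF3R, fell to 119 ± 1.08 CPM with WD6305, against 133 ± 3.53 CPM with DMSO (log2 fold change -0.16, SE 0.04, edgeR adjusted p = 0.0300). That call was lost in 6 of 15 alternatives, at adjusted p of 0.0588 to 0.118, including without WD6305 1, 2 or 3 or DMSO 2. STAT5A, STAT5B and STAT6, which act downstream of several of these receptors, did not pass, with log2 fold changes of 0.22 for STAT5A, 0.03 for STAT5B and -0.09 for STAT6.

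Among adaptors and kinases below the receptors, 11 of 25 rose and 2 fell, or 52.0% called, against 23.4% of all tested genes. FGR, a Src-family kinase of myeloid cells, rose to 35.0 ± 2.83 CPM with WD6305, against 19.5 ± 2.25 CPM with DMSO (edgeR adjusted p = 0.00065). FES, a myeloid tyrosine kinase, rose to 219 ± 9.85 CPM with WD6305, against 156 ± 5.33 CPM with DMSO (edgeR adjusted p = 0.00026). The phosphoinositide 3-kinase genes PIK3CB, a catalytic subunit, and PIK3R5, a regulatory one, rose by 0.52 and 0.67 on the log2 scale (edgeR adjusted p = 0.00023 and 0.000359). PLCG1, a phospholipase recruited to receptor kinases, fell to 28.2 ± 0.844 CPM with WD6305, against 39.2 ± 0.669 CPM with DMSO (edgeR adjusted p = 0.00113).

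Negative regulators were called about as often as any gene, at 22.7% against 23.4% of all tested genes. Of 22 tested, 5 rose and none fell by edgeR. At an unadjusted p under 0.05, 6 were higher and 1 lower, against 3347 and 3125 of all 18138 tested genes. By DESeq2 6 were higher and 0 lower, against 2520 and 2483 of all 18138. CBL, a ubiquitin ligase of activated receptor kinases, rose to 130 ± 6.09 CPM with WD6305, against 109 ± 4.86 CPM with DMSO (edgeR adjusted p = 0.00944). PTPRC, the leukocyte phosphatase CD45, rose to 246 ± 6.58 CPM with WD6305, against 176 ± 30.0 CPM with DMSO (edgeR adjusted p = 0.00984). DOK1, an adaptor that dampens kinase signals, and PIAS1, a STAT inhibitor, rose by 0.39 and 0.26 on the log2 scale (edgeR adjusted p = 0.0111 and 0.00603). SOCS5, of the suppressors of cytokine signalling, rose by 0.38 (edgeR adjusted p = 0.0268), a call lost in 7 of 15 alternatives, at adjusted p between 0.0640 and 0.101, including without WD6305 1 or 3 or DMSO 1 or 2.

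Of 17 tested genes on the STAT-linked target list, 7 fell, none rose and 10 did not pass by edgeR. Whether STAT factors control these genes in this line was not tested. The counts of falls and rises were the same at an unadjusted p under 0.05 and by DESeq2. Of all 18138 tested genes, 3125 were lower and 3347 higher at that unadjusted p. By DESeq2 2483 of them were lower and 2520 higher. The share called by edgeR was 41.2%, against 23.4% of all tested genes (11.2% lower), and the median log2 fold change was -0.23. This share is a description, since the list was chosen with earlier results of these data known. BCL2, BCL2L1 and MCL1 were among the genes that did not pass. PIM1, a kinase gene induced by cytokines, fell to 60.7 ± 8.79 CPM with WD6305, against 96.1 ± 4.74 CPM with DMSO (edgeR adjusted p = 0.00157). MYC fell to 317 ± 5.43 CPM with WD6305, against 410 ± 14.8 CPM with DMSO (edgeR adjusted p = 0.000664). ID1, an inhibitor of differentiation factors, fell to 3.66 ± 0.265 CPM with WD6305, against 8.61 ± 1.49 CPM with DMSO (edgeR adjusted p = 0.00073). IER3, an immediate early gene, and PIM3, a relative of PIM1, fell by 0.93 and 0.44 on the log2 scale (edgeR adjusted p = 0.00245 and 0.0049).

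**Figure D4:**
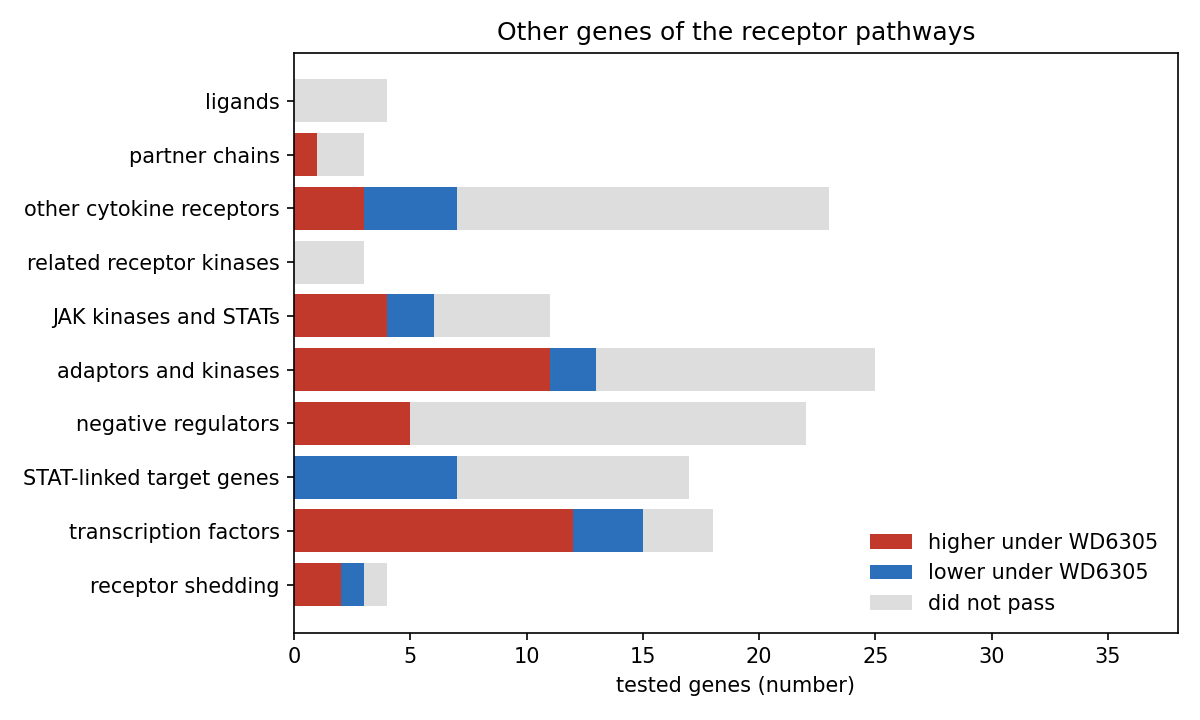
Number of tested genes in each of the 10 pathway lists that were higher under WD6305, lower under WD6305 or did not pass the edgeR test (adjusted p threshold 0.05). The STAT-linked target list has 7 lower and 0 higher genes, and the transcription factor list 12 higher and 3 lower.

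Of the transcription factors known to act at receptor genes, 18 were tested, 12 rose and 3 fell, with a median log2 fold change of 0.25. That is 83.3% called, against 23.4% of all tested genes. The list was chosen with earlier results of these data known, so this share is a description and not a test. CEBPD, a C/EBP factor of myeloid cells, rose to 63.7 ± 8.29 CPM with WD6305, against 36.4 ± 1.52 CPM with DMSO (edgeR adjusted p = 0.000566). CEBPE, the C/EBP factor of late granulocytic cells, rose by 0.70 on the log2 scale (edgeR adjusted p = 0.00442). FLI1, an ETS factor, rose to 193 ± 5.74 CPM with WD6305, against 144 ± 4.14 CPM with DMSO (edgeR adjusted p = 0.000348). GATA2, a stem and progenitor factor, fell to 8.37 ± 1.38 CPM with WD6305, against 18.0 ± 1.32 CPM with DMSO (edgeR adjusted p = 0.000563). SPI1, the PU.1 gene, CEBPB and RUNX1 had log2 fold changes of 0.30, 0.55 and -0.21 (edgeR adjusted p = 0.00573, 0.0333 and 0.0222). CEBPA did not pass, with 363 ± 27.2 CPM with WD6305 and 388 ± 15.3 CPM with DMSO (edgeR adjusted p = 0.323).

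Genes of receptor shedding, by which chains such as IL6R are released from the surface, gave 2 rises and 1 fall in 4. The share called was 75.0%, against 23.4% of all tested genes. ADAM10, a sheddase, rose to 232 ± 8.12 CPM with WD6305, against 165 ± 24.6 CPM with DMSO (edgeR adjusted p = 0.00533). FURIN, which activates sheddases, rose by 0.29 on the log2 scale (edgeR adjusted p = 0.0104, and 0.0519 without WD6305 2). RHBDF2, a partner of ADAM17, fell to 12.2 ± 0.523 CPM with WD6305, against 17.3 ± 0.601 CPM with DMSO (edgeR adjusted p = 0.00223). ADAM17 itself had a log2 fold change of 0.15 and did not pass.

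**Figure D5:**
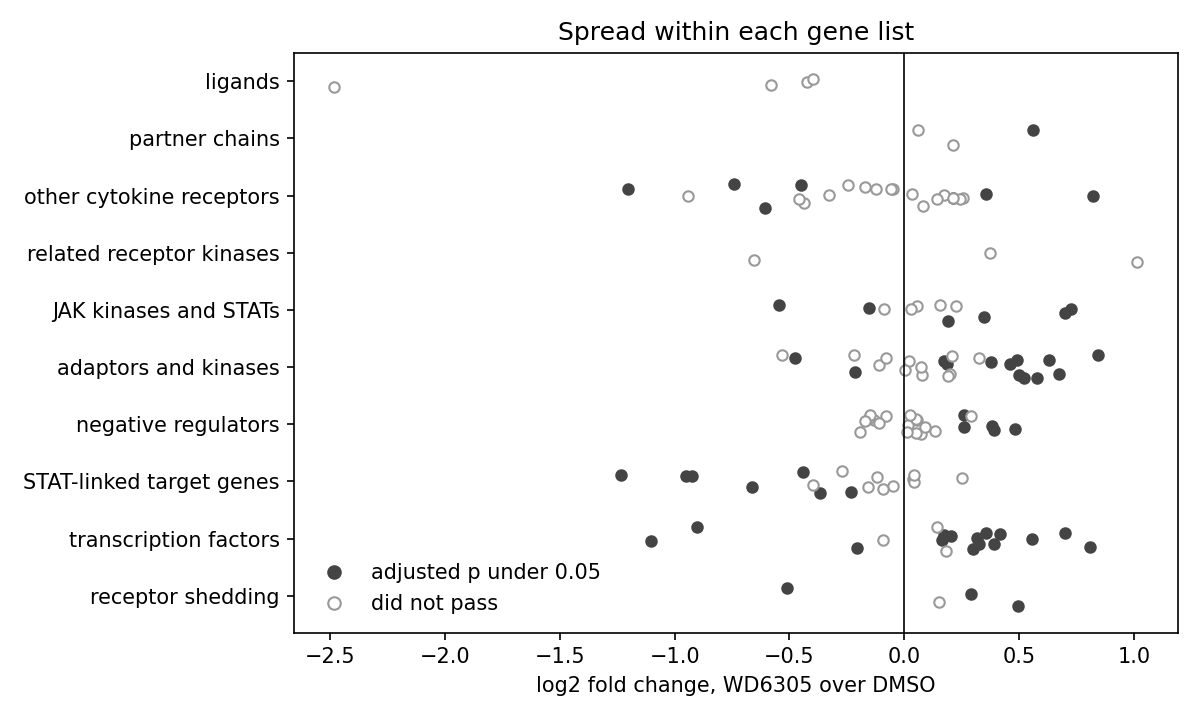
Log2 fold change, WD6305 over DMSO, of each tested gene in the 10 pathway lists (x axis) by list (y axis). Filled points passed the edgeR test at an adjusted p under 0.05 and open points did not: of the filled points ID1 at -1.23 and IL21R at -1.20 lie farthest left and FGR at 0.84 farthest right, and KITLG, among the ligands, is the open point farthest left.

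Of 16 neighbours that are not themselves receptors of the set, 4 rose, 1 fell and 11 were not called by edgeR, against 23.4% called of all tested genes, with 5 calls falling to 3 when WD6305 2 or WD6305 3 was left out. MRPS15, 1659 bases from CSF3R, had a log2 fold change of -0.08, and HMGXB3, 149 bases from CSF1R, had one of -0.06, and neither passed. Next to CSF2RB, which was at a like level in both groups, TST rose to 37.4 ± 3.78 CPM with WD6305, against 21.0 ± 2.26 CPM with DMSO (edgeR adjusted p = 0.00081). On the other side of CSF2RB, NCF4, an NADPH oxidase subunit, rose by 0.26 on the log2 scale (edgeR adjusted p = 0.00518). Both neighbours of IL7R, the receptor with the widest difference of the 9, were called. SPEF2 rose to 2.86 ± 0.424 CPM with WD6305, against 1.32 ± 0.458 CPM with DMSO (edgeR adjusted p = 0.0233). That call was lost in 5 of 15 alternatives, at adjusted p of 0.0608 to 0.164, including without WD6305 2 or 3. On its other side UGT3A2 fell by 0.51 on the log2 scale (edgeR adjusted p = 0.0137, and 0.0545 without WD6305 1 and DMSO 3). UBE2Q1, beside IL6R, rose by 0.17 (edgeR adjusted p = 0.0475), a call lost in 12 of 15 alternatives, at adjusted p of 0.0619 to 0.138, including without any 1 of the 6 libraries. The pseudogenes RPL7P1 and TMEM30BP1 lie inside CSF1R and IL13RA1 and overlap no exon of either in GENCODE 29. Both counted as neighbours, because neighbours were taken by the next start coordinate. PDGFRB, which starts at 150113839, past the end of CSF1R, was therefore not among the 16. It had a log2 fold change of -0.66 and did not pass (edgeR adjusted p = 0.0951).

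The genes whose profile was most like that of CSF3R were MS4A6A, PRTN3 and CD68, by the root mean square difference of log2 CPM relative to the DMSO mean over the 6 libraries. The differences were 0.0380 for MS4A6A, 0.0502 for PRTN3 and 0.0549 for CD68. MS4A6A is a membrane protein gene of monocytes, PRTN3 encodes the granule protease proteinase 3 and CD68 is a macrophage marker. For IL7R the nearest profiles were MIR4539 at 0.473, RGS16 at 0.495 and GZMH at 0.523. The IL7R distances are far larger than those of CSF3R, so these genes follow IL7R only loosely over the 6 libraries. MIR4539 rests on 2, 5 and 4 counts with WD6305 and 24, 13 and 14 counts with DMSO. RGS16, a regulator of G-protein signalling, rests on 103, 171 and 146 counts with WD6305 and 612, 537 and 452 counts with DMSO.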

How the data were processed

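All levels come from 1 deposited table that gives estimated counts and FPKM for 6 libraries. The submitters' processing notes name fastp, HISAT2, StringTie, edgeR and the GRCh38 build, without versions. The authors' deposited estimated counts are already whole, so rounding changed none. Low counts pile up at multiples of 4, with 1071 to 1176 genes at a count of 4 in a library against 553 to 636 at a count of 3, so counts may overstate the fragments, and errors here rest on the variation among libraries. The authors scaled the FPKM columns by transcript length and depth, as the unit in the file headers says. There were 0 further columns of samples.

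Genes kept by filterByExpr (18138) were scaled with TMM factors of 0.987 to 1.02 and compared by the two-sided edgeR 4.0.16 quasi-likelihood test in R 4.3.3, with no replicate block and Benjamini-Hochberg adjustment at 0.05. The common biological coefficient of variation was 20.8%. Standard errors were derived from the F value. DESeq2 1.42.0 and limma 3.58.1, limma being limited to genes at 0.1 FPKM or more in 3 libraries, were alternatives. The receptors, gene lists and markers were chosen with earlier results of these data known. Named were the 9 receptors, METTL3, all list genes that passed where 5 or fewer did and otherwise the 5 with the smallest adjusted p, partner chains, ligands with a mean FPKM of at least 1, up to 6 neighbours that passed, and the 3 most similar genes for CSF3R and IL7R. One transcription factor that met the rule is not reported here. Those 3 also needed a mean FPKM of 1 or more in whichever group was higher. Other genes named, such as further ligands, IL13RA2, CD14, CD33, ITGAM, FCGR1A, LYZ, STAT3, the STAT5 genes and STAT6, were chosen after their values were seen. So were BCL2, BCL2L1, MCL1, SPI1, RUNX1, CEBPA, CEBPB, ADAM17, MRPS15, HMGXB3 and PDGFRB. Neighbours are the tested genes with the next lower and next higher start coordinate. A gene inside a receptor can therefore stand in place of a flanking one. Promoter windows are from RefSeq (GRCh38.p14). Libraries within a group were compared by chi-square on counts divided by 4, over genes with at least 20, and the 6 pairs gave 3.77 to 10.4 per degree of freedom, so none was taken for a repeat. The fits were tested on simulated data.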

Additional observations from a re-analysis of the deposited data

How the results depend on the processing

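Over the 15 alternatives the log2 fold change of the receptors, given as a description, lay between 1.07 and 1.21 for CSF3R, 0.35 and 0.41 for IL6R, 0.51 and 0.60 for IL13RA1, 0.75 and 1.49 for CSF1R, and -2.77 and -1.02 for IL7R. The values nearest 0 for CSF1R (0.75), IL13RA1 (0.51) and IL7R (-1.02) came from limma on log2(FPKM + 1), where the pseudocount pulls low genes towards 0 by construction. CSF2RB ranged from -0.02 to 0.16.

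Over all genes the count was 4249, and 3204 with the replicate block, 5003 with DESeq2 and 2756 to 4640 with 1 library left out, lowest without WD6305 3. With the TMM factors 52.2% of calls were higher, and without them 46.1%. The 57 pathway calls ranged from 42 to 56 with 1 library left out and were 52 with the replicate block and 63 with DESeq2. The 5 neighbour calls were 3 with no filter on low counts, 3 with limma at either pseudocount and 3 to 5 with 1 library left out. These alternatives for neighbours were chosen after seeing the data, and the cause of the lost calls was not tested. No pairing of libraries by replicate number was seen. Deviations of same-numbered libraries correlated at -0.18, 0.08 and -0.15, and not every library correlated best with its own number. The deviations were taken from group means of 3 libraries, so the correlations depend on each other. They cannot decide whether same-numbered libraries were handled together. The highest correlation across groups, 0.26, was between WD6305 1 and DMSO 3, the 2 libraries that keratinocyte markers set apart. No group here had more than 3 libraries, so none was screened for an outlying sample, and no direction was reversed among called values. Depth limits IL7R with WD6305 and the ligands and partner chains at or near 0 counts.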
